A study of Mus musculus with 4 samples.

Results

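Plasmacytoid dendritic cells (pDC) were identified by their RNA among liver mononuclear cells of naive mice and of mice with ConA-induced hepatitis. Unique molecular identifiers (UMIs), each of which stands for 1 captured RNA molecule, were counted per gene and cell. A cell was called a pDC when it held UMIs of 2 or more of *Siglech*, *Ccr9*, *Klk1*, *Cox6a2*, *Pacsin1* and *Cd300c* and none of *Cd3d*, *Cd3e* or *Cd3g*. These 6 genes are called rule markers here. Of 9300 cells in 4 libraries, 80 were pDC, which is 0.86% (95% exact binomial interval 0.683 to 1.07). The members were thus chosen by the measured UMIs of these genes, so that their levels describe the members and support nothing further, and no test of pDC against other cells was made.

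Each of the 4 groups was 1 library of liver mononuclear cells from C57/Bl6 mice aged 8 to 10 weeks. The Naive mice are labelled only as naive. The ConA+Veh mice received concanavalin A (ConA), a plant lectin that activates T cells and injures the liver, followed by vehicle. The ConA+TCDD mice received ConA followed by TCDD, a dioxin that binds the aryl hydrocarbon receptor (AhR), and the ConA+FICZ mice received ConA and FICZ, a tryptophan derivative that binds the same receptor. Cells of the ConA groups were taken 24 h after ConA. With 1 library per group there was no replicate check, no test between groups was made, and the number of mice behind a library and the dose of FICZ were not given in the sources used here. All intervals are at 95% and cover counting error only, neither differences between mice nor those between cells.

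pDC are bone marrow-derived dendritic cells that sense viral and self nucleic acids in endosomes through TLR7 and TLR9 and can release large amounts of type I interferon. Their identity depends on the E protein TCF4, which binds E-box motifs, and on IRF8 and RUNX2. In the liver they lie among the mononuclear cells of the sinusoids and can carry tolerogenic as well as inflammatory functions.

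The members were few and not all alike. Naive held 21 members with 104510 UMIs in all, ConA+Veh held 25 with 149378, ConA+TCDD held 17 with 82965, and ConA+FICZ held 17 with 87827. The median member had 2795, 5039, 4777 and 3971 UMIs in the same order, against 2161, 3984, 3761.5 and 3147 UMIs over all cells of these libraries. The median share of mitochondrial UMIs in members was 6.73% in Naive, 3.03% in ConA+Veh, 3.35% in ConA+TCDD and 4.43% in ConA+FICZ, and 16 members lay above 10%. The part of depth and RNA quality in the differences between libraries was not tested. Across the libraries 45 cell barcodes occurred in more than 1 library, and none of them belonged to a member. The number of rule markers per member was 2 in 21 cells, 3 in 10, 4 in 14, 5 in 22 and 6 in 13.

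The 59 members with 3 or more rule markers (19, 17, 12 and 11 per library) and the 21 with exactly 2 differed in content. Of 10 pDC genes outside the rule (*Bst2*, *Tcf4*, *Irf8*, *Spib*, *Runx2*, *Ly6d*, *Tlr7*, *Tlr9*, *Rnase6* and *Cd209d*), the 59 cells held a median of 7 and at least 3. The 21 cells held a median of 5 and at least 2, and 5 of them held only 2. *Cd79a*, a B cell receptor chain, was present in 2 of the 59 and in 5 of the 21. The 10 genes are not particular to pDC. Non-member cells with 2 or more genes of a B cell set that includes *Cd79a* held a median of 3 of them. Of these B-type cells, 547 of 3020 held 5 or more, as did 12 of the 21 and 52 of the 59. The deepest of the 21 cells, a Naive cell with 30541 UMIs, held 29.2% of all UMIs of the Naive members together with 38 UMIs of *Cd79a* and none of *Siglech*. A ConA+Veh cell of 17073 UMIs held 750 UMIs of *Cst3*, a cystatin abundant in conventional dendritic cells, 1 of *Ccr9* and none of *Siglech* or *Tcf4*. Others of the 21 were small cells with the other pDC genes, such as a ConA+FICZ cell of 1777 UMIs with 5 UMIs of *Siglech* and 4 of *Tcf4*. Members with exactly 2 rule markers held 84396 of the 149378 UMIs of ConA+Veh members. They held 32071 of 104510 in Naive, 23936 of 82965 in ConA+TCDD and 31773 of 87827 in ConA+FICZ. In ConA+Veh they included cells of 22003, 14984 and 12964 UMIs without *Siglech*, beside the cell of 17073. Such cells enter each level and ratio over all members. The main results between libraries are therefore given also for the 59 cells with 3 or more rule markers, which are called the 3-marker pDC below.

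**Figure D1:**
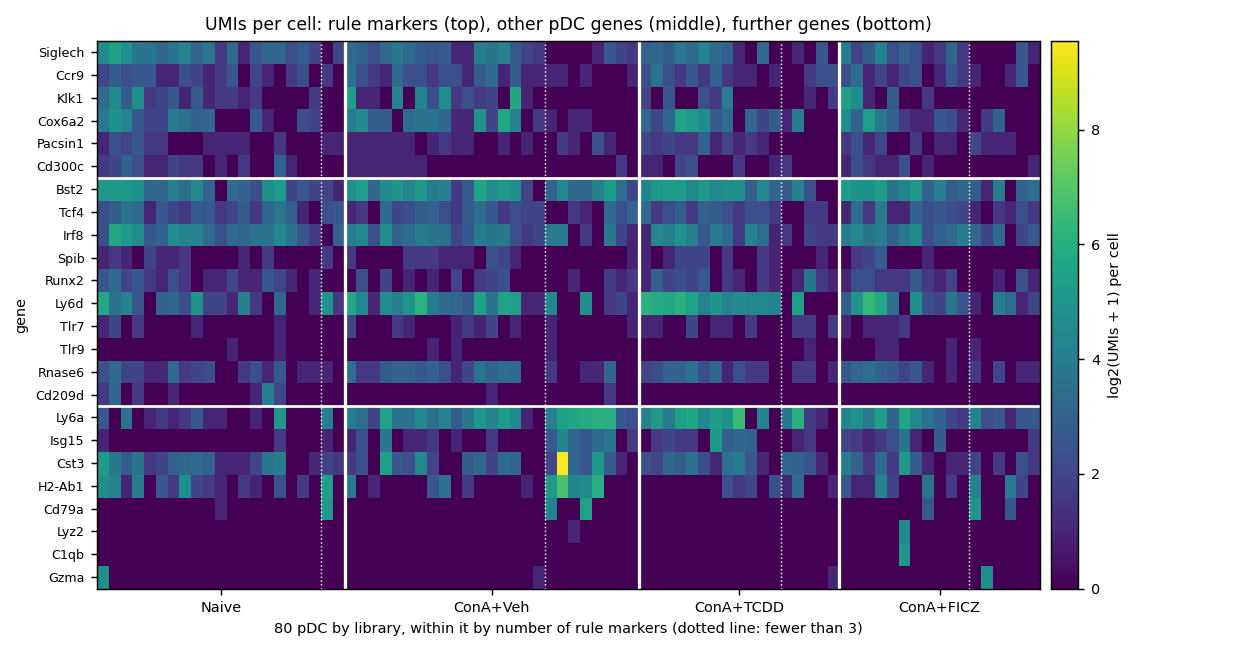
UMIs per cell of 24 genes (rows) in the 80 pDC (columns), colored as log2(UMIs + 1). Columns are ordered by library and, within a library, by the number of rule markers, and cells right of each dotted line have exactly 2. Left of the dotted lines cells held a median of 7 of 10 pDC genes outside the rule and right of them 5, *Cd79a* at 19 UMIs or more and the cell with 750 UMIs of *Cst3* lie right of them, and *Gzma* at 26 or 27 UMIs lies in 1 cell on either side.

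The edge of the rule was crossed by cells of several kinds. Outside it lay 284 cells with 1 rule marker and no *Cd3* gene, and 66.5% of these held *Cd79a*, 65.5% held *Pacsin1* and 1.41% held *Siglech*. A further 103 cells held 2 or more rule markers and a *Cd3* gene. Of those 103 cells, 99 held *Ccr9*, 99 held *Pacsin1*, and 4 held *Siglech*, and their median depth was 18101 UMIs. *Ccr9*, a gut-homing chemokine receptor, is known also from T cells, and the summed level of *Ccr9* in T-type cells (2 or more *Cd3* genes and no other class) was 30.2 UMIs per 1000000 UMIs of those cells (counts per 1000000, CPM).

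The share of pDC found by the rule did not differ between libraries beyond its counting error. It was 1.01% (0.624 to 1.53) in Naive, 0.90% (0.583 to 1.33) in ConA+Veh, 0.904% (0.528 to 1.44) in ConA+TCDD and 0.665% (0.388 to 1.06) in ConA+FICZ. The log2 ratio of the share was −0.16 (−1.06 to 0.75) between ConA+Veh and Naive. Relative to ConA+Veh it was 0.01 (−0.97 to 0.95) in ConA+TCDD and −0.44 (−1.42 to 0.51) in ConA+FICZ. Differences inside these intervals were not detectable with this number of cells. The 3-marker pDC made up 0.911%, 0.612%, 0.638% and 0.431% of cells in the same order, with overlapping intervals. Without the condition on the *Cd3* genes, which adds the 103 cells described above, the shares were 1.34%, 2.66%, 2.29% and 1.49%, and Naive was then the lowest. The study's own pDC cluster made up a larger share of ConA+Veh and ConA+TCDD cells than these members, so the sets of cells differ. The cells of that cluster were not analysed here, and their overlap with the members was not tested.

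**Figure D2:**
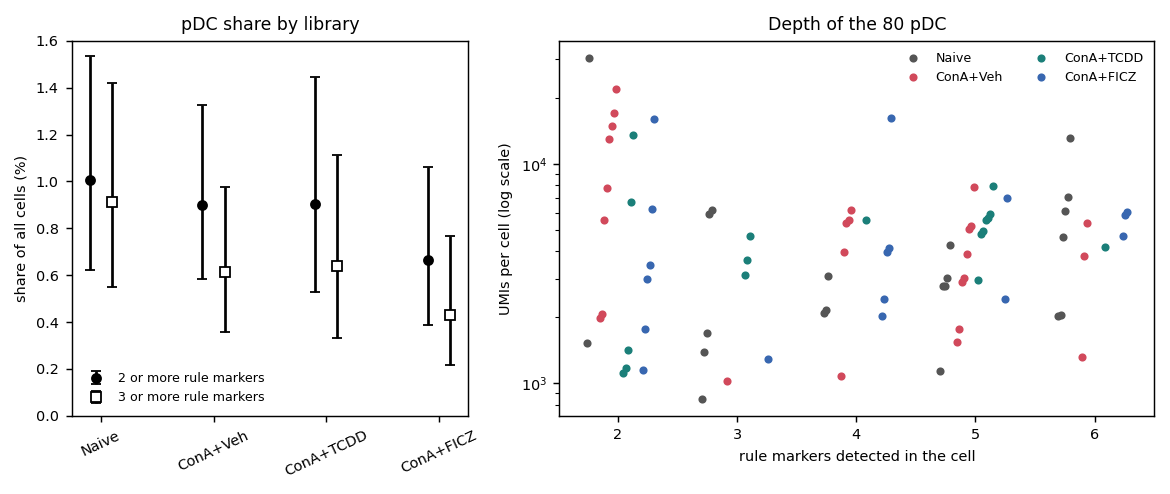
Left, pDC as a percentage of all cells of each library, for 2 or more (filled) and 3 or more (open) rule markers, with exact 95% binomial intervals, which overlap between all libraries. Right, UMIs per cell (log scale) against the number of rule markers in each of the 80 pDC, where cells with exactly 2 markers span 1118 to 30541 UMIs and those with 3 or more span 851 to 16156.

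The rule markers are a sialic acid-binding receptor (*Siglech*), a chemokine receptor (*Ccr9*), a tissue kallikrein (*Klk1*), a cytochrome c oxidase subunit known from heart and skeletal muscle (*Cox6a2*), a protein of membrane bending and endocytosis (*Pacsin1*) and an immunoglobulin-like receptor (*Cd300c*). Pooled over libraries, their levels in members were 1439 CPM for *Cox6a2* (1327 to 1557), 1250 for *Siglech* (1146 to 1361), 869 for *Klk1* (782 to 962), 511 for *Ccr9* (445 to 584), 219 for *Pacsin1* (177 to 268) and 174 for *Cd300c* (137 to 219). Each RNA molecule is counted once whatever its length, although capture can differ between genes. *Siglech* lies at chr7:55768178-55778925 on the plus strand of mouse build GRCm38 and *Klk1* at chr7:44225360-44229618, also on the plus strand, by the GENCODE annotation.

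The 250 bases before the RefSeq start of both genes are shown because TCF4, whose RNA marks these cells, binds E-boxes. They lie at chr7:55767934-55768183 and chr7:44225110-44225359 (GRCm38.p6, plus strand), are written 5′ to 3′ and are credited to RefSeq. Capitals mark the letters CANNTG, the same on either strand.
Siglech: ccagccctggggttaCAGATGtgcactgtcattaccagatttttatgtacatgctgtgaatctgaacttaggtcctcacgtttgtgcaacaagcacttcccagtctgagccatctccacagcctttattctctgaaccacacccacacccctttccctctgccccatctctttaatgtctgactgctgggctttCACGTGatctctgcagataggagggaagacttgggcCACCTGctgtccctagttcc
Klk1: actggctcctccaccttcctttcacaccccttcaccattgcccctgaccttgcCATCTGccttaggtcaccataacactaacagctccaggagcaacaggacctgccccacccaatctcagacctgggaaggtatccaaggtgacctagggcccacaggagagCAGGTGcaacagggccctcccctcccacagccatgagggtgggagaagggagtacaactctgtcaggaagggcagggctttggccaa
There were 3 matches before *Siglech* and 2 before *Klk1*, which is a description of the letters and not of a bound site. Of the 6 rule markers, 5 were found in the table, and 4 of them held a match. CANNTG is common, since 66.2% of 32851 windows of 250 bases upstream of mouse genes held at least 1 match and 12.2% held 3 or more. *Pacsin1* had none, and *Cd300c* had 4.

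Outside the rule, the members carried the genes that pDC are known for. Of 29 further pDC identity genes with at least 20 UMIs in members, 26 had a level at least 2-fold above that of all other cells, beside 614 of all 3253 genes with at least 20 UMIs. Genes under that minimum in members were left out, so that they could not count as below. *Ly6d*, a surface protein of pDC and B cells, stood at 3306 CPM (3135 to 3484), against 326 in all other cells. *Bst2*, the antigen of the pDC antibody PDCA-1 and a tetherin, stood at 3212 (3044 to 3387) against 460. *Ly6c2* stood at 2696 (2542 to 2857) against 400, and *Rnase6*, a secreted ribonuclease, at 631 (558 to 711) against 29. *Dntt*, the enzyme that adds bases at antigen receptor joints in lymphoid progenitors, had 37 UMIs in 25 members at 87.1 CPM, against 0.511 in all other cells.

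Of 20 listed transcription factors, 16 had at least 20 UMIs in members. Of these 16, 11 were at least 2-fold above other cells and 1 at least 2-fold below, beside 614 above and 56 below of all 3253 genes. *Irf8* was the most abundant of those named here at 1961 CPM (1831 to 2099), then *Tcf4* at 737 (658 to 823) and *Runx2* at 360 (305 to 422). Elsewhere these stood at 273, 40.7 and 7.22. *Spib*, an ETS factor also used by B cells, stood at 153 (118 to 195), against 116 in B-type cells (2 or more genes of a B cell set that includes *Cd79a*) and 0.43 in T-type cells. *Id2*, an inhibitor of E proteins that conventional dendritic cells and NK cells carry, was lower in members than in all other cells, at 61.2 against 220 CPM. *Zbtb46*, which defines conventional dendritic cells, had no UMI in any member.

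Of 25 listed genes of nucleic acid sensing, 15 had at least 20 UMIs in members. Of these 15, 10 were at least 2-fold above other cells and none below, beside the same 614 and 56 of 3253 genes. The genes under that minimum, *Tlr9* and *Tlr3* among them, could not count as below. *Tlr7* stood at 106 CPM (77.3 to 142) against 10.3, *Tlr9* at 23.5 (11.3 to 43.3) against 3.97 and *Unc93b1*, which carries both receptors to endosomes, at 650 (575 to 731) against 150. *Irf7*, the factor that drives interferon alpha genes, stood at 494 (430 to 566) against 143. *Tlr3* was not detected. The interferon genes themselves were not detected. All 14 interferon alpha genes measured, *Ifnb1*, *Ifnl2* and *Ifnl3* had 0 UMIs in the 424680 UMIs of members. A floor of 3 counts stands for 7.06 CPM there, and the exact interval of a count of 0 reaches above this floor. *Il6* and *Il12b* were also at 0. Of the receptors, *Flt3*, which supports dendritic cell development, stood at 130 (97.6 to 169) against 3.22 in all other cells, and *Ifnar2*, a chain of the type I interferon receptor, at 370 (314 to 432) against 64.2.

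The genes with the highest ratio of members over all other cells, the rule genes left out and ranked by the lower bound of the interval, began with 3 genes known from muscle. *Pgam2*, a muscle phosphoglycerate mutase, had 24 UMIs in 11 members and 1 UMI in all other cells. *Sh3bgr*, known from heart and skeletal muscle, had 57 UMIs in 25 members and 7 in other cells, and *Atp2a1*, the calcium pump of fast muscle, had 51 UMIs in 27 members and 8 in other cells. All 3 were found in members of all 4 libraries. The other ranked genes were *Klk1b27*, *Gm21762*, *Grm8*, *Sct*, *Cd209d*, *AC140186.1*, *Paqr5*, *Adam11*, *Smim5*, *Foxr1* and *D13Ertd608e*, and *Ighv12-3*, whose 198 UMIs lay in 1 cell. *Klk1* and *Klk1b27* belong to a family of near-identical kallikrein genes, so that reads may be split between them.

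MHC class II RNA was present at levels between those of the other antigen-presenting cells. *Cd74*, the invariant chain, stood at 7587 CPM in members (7327 to 7853), at 28876 in conventional DC-type cells, at 15175 in B-type cells and at 1699 in phagocyte-type cells. Of the 1588 *Cd74* UMIs of ConA+Veh members, 256 lay in 3-marker pDC. The listed class II and costimulation genes summed to 13688 CPM in all members and 9212 in the 3-marker pDC. The conventional DC-type cells (2 or more of *Xcr1*, *Clec9a*, *Cd209a*, *Mgl2*, *Clec10a*, *Zbtb46* and *Itgax*) numbered 24, and the phagocyte-type cells (2 or more of *Csf1r*, *Fcgr1*, *Cd14*, *Ms4a6c*, *C1qa* and *Adgre1*) numbered 645.

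**Figure D3:**
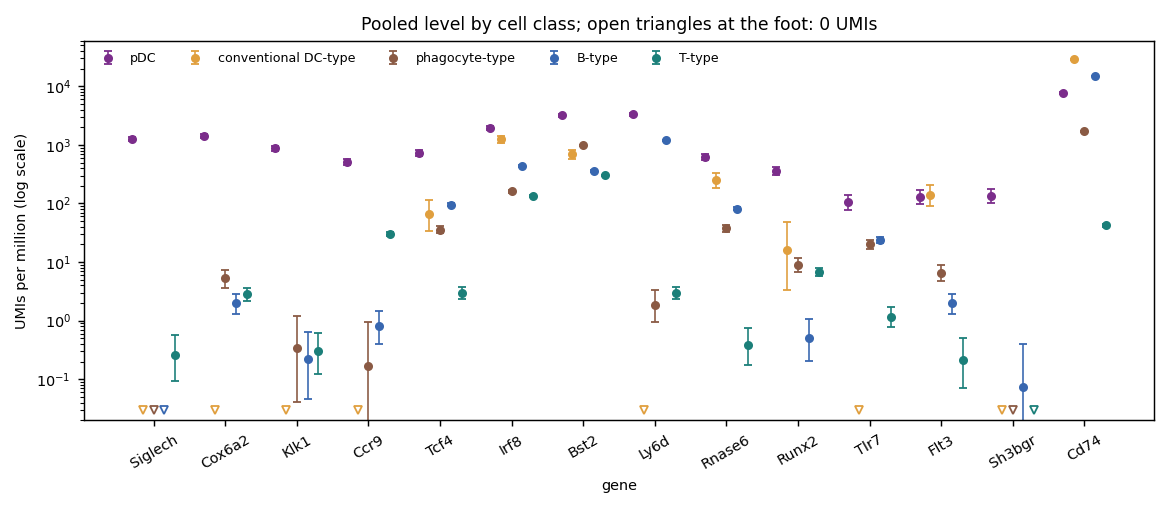
Summed UMIs per 1000000 (CPM, log scale) of 14 genes in pDC and in 4 other cell classes, pooled over the libraries, with exact 95% Poisson intervals. Open triangles at the foot mark 0 UMIs. *Siglech*, *Cox6a2*, *Klk1* and *Sh3bgr* are present in pDC and at or near 0 elsewhere, *Irf8*, *Bst2* and *Flt3* are shared with other classes, and *Cd74* is higher in conventional DC-type and B-type cells.

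To compare cells of unequal depth, each cell was thinned to 1000 UMIs, which left out 1 member. *Bst2* was then found in 79.7% of members (69.2 to 88.0), *Irf8* in 78.5% (67.8 to 86.9), *Ly6d* in 73.4% (62.3 to 82.7), *Siglech* in 69.6% (58.2 to 79.5), *Tcf4* in 65.8% (54.3 to 76.1), *Rnase6* in 51.9% (40.4 to 63.3) and *Runx2* in 39.2% (28.4 to 50.9). Unthinned, with a median of 4051.5 UMIs, these shares were 93.8%, 93.8%, 83.8%, 82.5%, 88.8%, 78.8% and 70.0%. In T-type cells, which should lack most of these genes and whose median depth was 5792.5 UMIs, the thinned shares were 23.6% for *Bst2*, 9.57% for *Irf8*, 0.266% for *Ly6d*, 0% for *Siglech*, 0.266% for *Tcf4*, 0.0887% for *Rnase6* and 1.15% for *Runx2*. Unthinned T-type shares were 67.9%, 41.5%, 1.48%, 0.174%, 2.26%, 0.348% and 5.78%. B-type cells, at a median of 2798 UMIs, held *Ly6d* in 60.1% and *Siglech* in 0%.

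Some rule markers were far less even among members than others. Per 10000 UMIs of a cell, *Siglech* in the 3-marker pDC had a lowest value of 0, a median of 18.8 and a highest of 60.8, and 2 of 59 cells had none. *Klk1* had a median of 5.40 and a highest of 131, and 21 of 59 cells had none. *Cox6a2* had a median of 19.3 and a highest of 92.5, and 8 of 59 cells had none. In ConA+TCDD and ConA+FICZ the median 3-marker pDC held no *Klk1*, which was found in 5 of 12 and 5 of 11 cells.

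**Figure D4:**
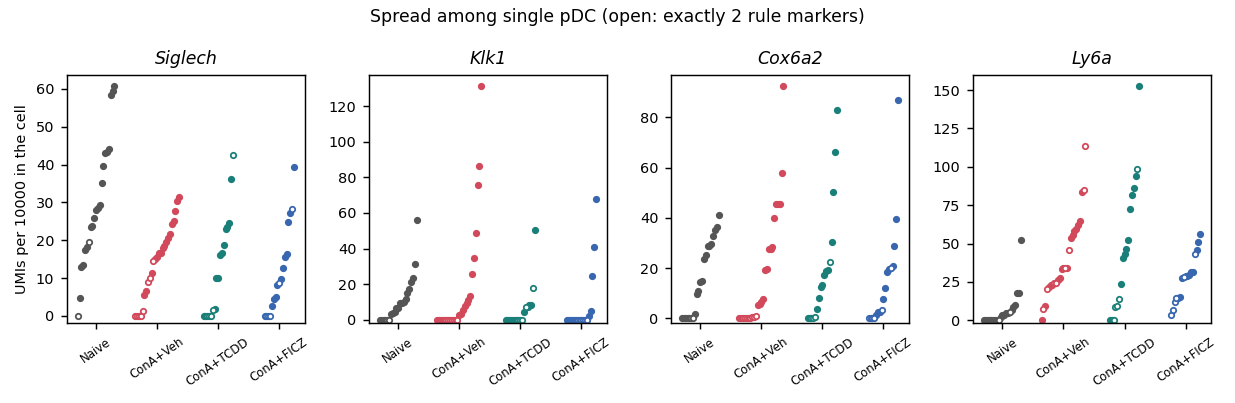
UMIs per 10000 of *Siglech*, *Klk1*, *Cox6a2* and *Ly6a* in each pDC, by library and sorted within it. Filled points have 3 or more rule markers and open points exactly 2. *Klk1* reached 131 in 1 ConA+Veh cell while 40 of the 80 cells had none, and *Ly6a* lay below 20 in all Naive cells but 1.

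Markers of other cell types were present in part of the members. No doublet caller was run and doublets were not removed. Of the 80 members, 6 held 3 or more of 10 B cell markers, and 5 of these 6 had exactly 2 rule markers. Conventional dendritic cell markers (3 or more of 10) were found in 13 members, 10 of them 3-marker pDC, with *Clec10a* the most abundant at 46 UMIs in 26 cells. Monocyte and macrophage markers (3 or more of 14) were found in 5 members, plasma cell markers in 6, NK cell markers in 2, T cell markers in 1 and hepatocyte markers in 3. No member held 3 markers of neutrophils, granulocyte progenitors, erythroid or endothelial cells. The summed B cell markers stood at 947, 850, 96.4 and 1457 CPM in members of Naive, ConA+Veh, ConA+TCDD and ConA+FICZ, and at 124, 15.4, 84.7 and 446 in the 3-marker pDC.

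ConA+Veh was compared with Naive to describe pDC in the inflamed liver. Differences past 2-fold both over all members and in the 3-marker pDC included higher levels of several interferon-stimulated genes, *Ly6a* and *Cd8a*. They also included lower levels of *Cd209a*, *Cd209d* and *Klra17*. Of 11 measured type I interferon-stimulated genes, 8 were at least 2-fold higher and none was at least 2-fold lower, beside 8.41% of all 2009 genes that were higher and 9.61% that were lower. Among 3-marker pDC, 4 of 8 were higher and none lower, beside 11.0% of 1091 genes higher and 8.43% lower. Over all members the median log2 ratio of the list was 1.62 and that of all genes measured 0.02. In the 3-marker pDC these medians were 1.15 and 0.06. The list summed to 1770 CPM in Naive and 6487 in ConA+Veh, and to 2292 and 6063 in the 3-marker pDC.

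*Isg15*, a ubiquitin-like protein induced by interferon, had 4 UMIs in 3 of 21 Naive members, 87 in 15 of 25 ConA+Veh members, 69 in 10 of 17 ConA+TCDD members and 33 in 9 of 17 ConA+FICZ members. The Naive library was the lowest. The log2 ratio for ConA+Veh over Naive was 3.93 (2.52 to 5.84), and 3.22 (1.5 to 5.59) in the 3-marker pDC, which had 3 UMIs in Naive and 25 in ConA+Veh, 52% of the latter in 1 cell. Thinned to 1000 UMIs, *Isg15* was found in 0% of Naive and 36.0% of ConA+Veh members, and in 1.44% and 12.6% of B-type cells of the same libraries. All cells outside the pDC class also had more, with 139 CPM in Naive and 528 in ConA+Veh. *Ifi27l2a* had 60, 313, 276 and 264 UMIs in members of the 4 libraries, with a log2 ratio of 1.87 (1.47 to 2.29), 1.55 (1.07 to 2.05) in the 3-marker pDC and 1.07 with members holding B cell RNA left out. *Ifitm3*, a membrane protein that blocks virus entry, had 1, 182, 82 and 116 UMIs. Of the 116 in ConA+FICZ, 108 lay in 1 cell, which also held 30 UMIs of *C1qb* and 23 of *Lyz2*, genes of macrophages. Of its 35 UMIs in 3-marker pDC of ConA+Veh, 85.7% lay in 1 cell, the same cell that held 13 of their 25 UMIs of *Isg15*, and in phagocyte-type cells it stood at 5315 CPM, and the part of other cells' RNA in this result was not tested.

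The 250 bases before *Isg15*, at chr4:156200819-156201068 on the minus strand (GRCm38.p6, from RefSeq), are shown for GAAA followed after any 2 bases by a second GAAA, the core of the element bound by interferon-activated factors. They are written 5′ to 3′ along the gene, both strands were searched, and capitals mark the matches.
Isg15: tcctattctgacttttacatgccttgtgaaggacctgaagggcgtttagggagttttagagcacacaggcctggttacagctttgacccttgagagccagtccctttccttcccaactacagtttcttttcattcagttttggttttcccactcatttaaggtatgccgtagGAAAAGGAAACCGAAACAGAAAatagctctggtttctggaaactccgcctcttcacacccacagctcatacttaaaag
The 3 matches overlap each other and form 1 run. At least 1 match was found before 14 of 27 interferon-stimulated genes in the table, and in 2.98% of all 32851 windows. At least 3 matches were found in 0.0122% of them. Of the listed genes, 10 had no entry.

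The surface proteins *Ly6a* and *Cd8a* were higher in RNA in ConA+Veh. *Ly6a*, which encodes Sca-1 and is induced by interferons, had 77 UMIs in 12 of 21 Naive members and 582 in 24 of 25 ConA+Veh members. ConA+TCDD had 430 in 14 of 17 and ConA+FICZ 238 in 17 of 17. Naive was the lowest of the 4, with 737 CPM against 3896, 5183 and 2710. The log2 ratio for ConA+Veh over Naive was 2.40 (2.06 to 2.77), and 2.33 (1.93 to 2.76) in the 3-marker pDC. *Ly6a* was also higher in all other cells, at 542 CPM in Naive and 1842 in ConA+Veh. *Cd8a*, whose product marks a subset of mouse pDC, had no UMI in Naive members, 38 in 10 of 25 ConA+Veh members, 11 in 5 of 17 ConA+TCDD members and 16 in 2 of 17 ConA+FICZ members. With no UMI in Naive the log2 ratio has no upper bound, and its lower bound was 2.78 over all members and 3.33 in the 3-marker pDC. Thinned, it was found in 20% of ConA+Veh members and in 0.524% of B-type cells of that library. T-type cells of that library, where *Cd8a* marks cytotoxic cells, held it in 21.8%. Unthinned, it was in 40% of ConA+Veh members at a median depth of 5039 UMIs, in 1.59% of B-type cells at 4280 and in 47.5% of T-type cells at 7895.5. All other cells stood at 71.0 CPM in Naive and 169 in ConA+Veh. *Ly6c2* had a log2 ratio of 1.13 (0.85 to 1.42), and 1.53 (1.24 to 1.82) in the 3-marker pDC, but 0.48 with members holding B cell RNA left out and 0.88 without the deepest member of each library, so that the 2-fold difference depends on the members. *Ly6d* was under 2-fold over all members, at 0.63 (0.39 to 0.88), and 1.38 (1.11 to 1.64) in the 3-marker pDC. *Srgn*, a granule proteoglycan, was higher by 1.09 (0.66 to 1.53), and by 2.65 (1.87 to 3.52) in the 3-marker pDC and 0.94 with the quality filter on cells, and *Gclm*, of glutathione synthesis, by 1.91 (1.13 to 2.78) and 2.67 (1.5 to 4.07). *Gclm* was higher in all other cells too, at 97.5 and 700 CPM.

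Lower in ConA+Veh than in Naive were *Cd209a*, *Cd209d* and *Klra17*. Of 28 measured identity genes, 5 were at least 2-fold lower and 3 higher over all members, beside 9.61% and 8.41% of all genes. In the 3-marker pDC 3 were lower (*Cd209d*, *Clec12a* and *Klra17*) and 8 higher, beside 8.43% and 11.0%. The 8 higher genes were *Ly6c2*, *Ly6d*, *Plac8*, *Lefty1*, *Cd8a*, *Ly6a*, *Ptprcap* and *Ctsl*. *Cd209a*, a DC-SIGN family lectin, had 34 UMIs in 8 of 21 Naive members, 1 in ConA+Veh and none in ConA+TCDD and ConA+FICZ. Its neighbour *Cd209d* had 33 UMIs in 7 Naive members, 3 in ConA+Veh and none in the other two. Naive held nearly all UMIs of both, and all but 2 of the UMIs lay in 3-marker pDC. The log2 ratio of ConA+Veh over Naive was −5.60 (−10.95 to −3.03) for *Cd209a* and −3.97 (−6.32 to −2.30) for *Cd209d*, and in the 3-marker pDC −4.93 (−10.28 to −2.36) and −4.89 (−10.23 to −2.31). *Cd209a* and *Itgax* are also conventional dendritic cell markers. Those markers together summed to 880 CPM in Naive and 281 in ConA+Veh members, and to 1229 and 262 in the 3-marker pDC. Of the 3 measured, *Cd209a*, *Clec10a* and *Itgax*, all were at least 2-fold lower over all members, and *Cd209a* and *Itgax* in the 3-marker pDC, beside the same 9.61% and 8.43%. *Clec10a* had 16 and 8 UMIs, a log2 ratio of −1.52 (−2.95 to −0.21), and −0.54 (−2.02 to 0.84) in the 3-marker pDC. *Zbtb46*, a factor of conventional dendritic cells, was at 0 UMIs in all members. The part of conventional dendritic cell RNA in these differences was not tested. *Cd209a* and *Cd209d* belong to a family of similar genes, and so do the Ly6, H2, Ifitm and Hist1 genes named here, so that reads may be split within each family. Outside the pDC class *Cd209a* stood at 11.6 CPM in Naive and 0.68 in ConA+Veh, and B-type cells of these libraries, thinned, held it in 0% and 0.131%. *Klra17*, a Ly49-type receptor, had 26, 5, 4 and 2 UMIs over the 4 libraries, with a log2 ratio of −2.89 (−4.63 to −1.49), and −2.22 (−3.96 to −0.82) in the 3-marker pDC. *Cd300c* had 36, 9, 14 and 15, with −2.52 (−3.75 to −1.43), and −2.21 (−3.62 to −1.02) in the 3-marker pDC. *Itgax*, the CD11c integrin chain, had 20, 7, 4 and 8 UMIs, with −2.03 (−3.51 to −0.73). Of the 7 UMIs of *Itgax* in ConA+Veh, 1 lay in 3-marker pDC, where the ratio was −4.17 (−9.54 to −1.52). *Siglech* had 225 UMIs in Naive, 136 in ConA+Veh, 93 in ConA+TCDD and 77 in ConA+FICZ. Its log2 ratio was −1.24 (−1.56 to −0.93), but only −0.67 (−1.0 to −0.35) in the 3-marker pDC. *Siglech* and *Cd300c* belong to the rule.

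Among the transcription factors, 4 of 15 measured were at least 2-fold lower (*Runx2*, *Ikzf1*, *Id3* and *Irf5*) and none higher, beside the 9.61% lower and 8.41% higher of all genes. Among 3-marker pDC 4 of 13 were lower (*Runx2*, *Ikzf1*, *Id3* and *Spi1*) and none higher, beside 8.43% lower and 11.0% higher. *Runx2* had 48 UMIs in Naive and 27 in ConA+Veh, with a log2 ratio of −1.35 (−2.08 to −0.64), and −1.04 (−1.85 to −0.27) in the 3-marker pDC. *Irf8* differed by −0.89 (−1.15 to −0.64) and *Tcf4* by −0.66 (−1.08 to −0.24), and in the 3-marker pDC by −0.53 (−0.81 to −0.25) and −0.27 (−0.74 to 0.19). Of 30 measured genes of the secretory pathway, 5 were at least 2-fold higher (*Ssr3*, *Hspa5*, *Sdf2l1*, *Creld2* and *Ostc*) and none lower, beside 8.41% and 9.61% of all genes. Of 23 measured in 3-marker pDC, 6 were higher (*Ssr2*, *Ssr3*, *Spcs1*, *Hspa5*, *Canx* and *Manf*) and none lower, beside 11.0% and 8.43%. Plasma cell markers stood at 928 CPM in Naive and 1453 in ConA+Veh members, and at 787 and 954 in the 3-marker pDC. A ConA+Veh member with exactly 2 rule markers held 6 plasma cell markers and 995 UMIs of the immunoglobulin gene *Iglv2*. The part of plasma cell RNA in the secretory genes was not tested. *Ccl4*, a chemokine for T and NK cells, had 286, 119, 115 and 107 UMIs, with a log2 ratio of −1.78 (−2.10 to −1.47), but 143 of the 286 Naive UMIs lay in 1 cell. With members holding B cell RNA left out the ratio was 0.25, and −1.79 (−2.18 to −1.42) in the 3-marker pDC, so that no direction is given for *Ccl4*.

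MHC class II genes differed in direction with the choice of members. Over all members *H2-Ab1*, a class II beta chain, had 151 UMIs in Naive and 284 in ConA+Veh, and 1 of 10 listed class II and costimulation genes was at least 2-fold higher (*Cd83*) and none lower, beside 8.41% and 9.61% of all genes. The 3-marker pDC held 109 UMIs of *H2-Ab1* in Naive and 33 in ConA+Veh, and 4 of 8 were at least 2-fold lower (*H2-Aa*, *H2-Ab1*, *H2-Eb1* and *H2-DMb1*) and none higher, beside 8.43% and 11.0%. The log2 ratio of *H2-Ab1* was 0.40 (0.11 to 0.69) over all members and −1.57 (−2.18 to −0.99) in the 3-marker pDC. With members holding B cell RNA left out it was 1.26. In that setting *H2-Aa* was at 1.51, *H2-Eb1* at 1.62 and *Cd74* at 1.27, all higher in ConA+Veh. The ConA+Veh members with exactly 2 rule markers included the 2 cells with *Cd79a* and the cell with 750 UMIs of *Cst3*. In the 3-marker pDC the conventional dendritic cell markers stood at 1229 and 262 CPM, as above, and B cell markers at 124 and 15.4, and the part of such RNA in the class II levels was not tested. All other cells also had less *H2-Ab1*, at 1870 and 638 CPM.

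Other genes with the largest ratios lay mainly in 1 cell. Higher in ConA+Veh were *Ifitm1* (163 UMIs, 76.1% of them in 1 cell), *Cxcl2* (46 UMIs, 97.8%) and *Ifi205* (34 UMIs, 97.1%). Lower were *Ccl5* (58 UMIs in 1 Naive cell), *Gzma* (26 UMIs in the same Naive library, in 1 cell) and the histone genes *Hist1h2ap*, *Hist1h1e* and *Hist1h1b*, for which 92.8% or more of the Naive UMIs lay in 1 cell. The Naive cell with *Gzma* had all 6 rule markers, 7 T cell and 6 NK cell markers, and 13150 UMIs. These were 18.2% of all UMIs of the Naive 3-marker pDC and enter each of their ratios. NK cell markers stood at 939 CPM in Naive and 108 in ConA+Veh 3-marker pDC, and their part in the differences was not tested.

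**Figure D5:**
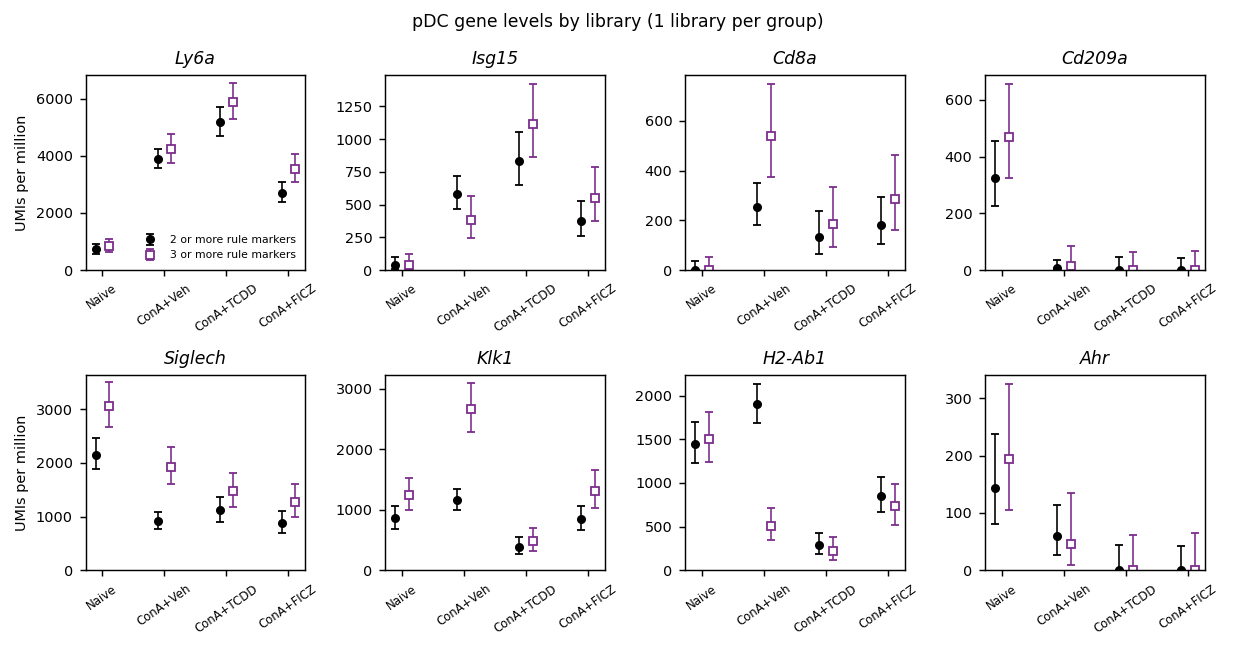
Summed UMIs per 1000000 (CPM) of 8 genes in pDC of each library, for all members (filled circles) and the 3-marker pDC (open squares), with exact 95% Poisson intervals. Naive stands apart as low for *Ly6a*, *Isg15* and *Cd8a* and high for *Cd209a*, ConA+TCDD is lowest for *Klk1*, *H2-Ab1* in ConA+Veh depends on the members, and *Ahr* is at 0 in ConA+TCDD and ConA+FICZ.

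ConA+TCDD was compared with ConA+Veh to describe pDC of the inflamed liver after TCDD. Most pDC identity genes were within 2-fold between them. Of 24 measured identity genes, none was at least 2-fold higher and 1 lower (*Clec12a*), beside 4.90% of 1756 genes higher and 8.31% lower. Among 3-marker pDC, none of 22 was higher and 2 were lower (*Upb1* and *Cd8a*), beside 3.56% of 955 genes higher and 4.82% lower. *Bst2* differed by 0.30 (0.09 to 0.51) and *Tcf4* by 0.12 (−0.39 to 0.61) on the log2 scale, and in the 3-marker pDC by −0.14 (−0.36 to 0.09) and −0.29 (−0.84 to 0.25).

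*Klk1* was the rule marker with the largest difference. It had 90 UMIs in 15 Naive members, 173 in 13 ConA+Veh members, 32 in 7 ConA+TCDD members and 74 in 5 ConA+FICZ members, and ConA+TCDD had the lowest CPM. The log2 ratio for ConA+TCDD over ConA+Veh was −1.59 (−2.18 to −1.04), and −2.44 (−3.06 to −1.86) in the 3-marker pDC. In ConA+Veh 30.1% of the *Klk1* UMIs lay in 1 cell, so the spread between cells is wider than the interval. *Runx2* had 27 and 45 UMIs, with a log2 ratio of 1.59 (0.87 to 2.33), 0.60 (−0.26 to 1.49) in the 3-marker pDC and 0.76 with members holding B cell RNA left out. *Pacsin1* was higher by 1.21 (0.33 to 2.11), by 1.19 (0.19 to 2.27) in the 3-marker pDC and by 0.50 as a mean over cells. *Cd300c* was higher by 1.49 (0.18 to 2.87), from 9 to 14 UMIs, and by 0.92 (−0.55 to 2.50) in the 3-marker pDC. *Pacsin1* and *Cd300c*, like *Klk1*, are rule markers.

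Interferon-stimulated genes went both ways over all members. Of 13 measured, 2 were at least 2-fold higher (*Ifi203* and *Slfn5*) and 2 lower (*Zbp1* and *Isg20*), beside 4.90% and 8.31% of all genes. Among 3-marker pDC 4 of 9 were higher (*Isg15*, *Ifi27l2a*, *Ifi203* and *Slfn5*) and none lower, beside 3.56% and 4.82%. There *Isg15* had 25 UMIs under ConA+Veh and 66 under ConA+TCDD, which is 1.54 on the log2 scale (0.86 to 2.27), with 36 of the 66 UMIs in 1 cell. *Ifi27l2a* had 131 and 262 UMIs, a log2 ratio of 1.14 (0.83 to 1.45), and was found in 8 of 17 and 11 of 12 cells. Over all members these ratios were 0.51 (0.04 to 0.99) and 0.67 (0.43 to 0.91). Outside the pDC the levels went the other way, from 528 to 304 CPM for *Isg15* and from 1499 to 826 for *Ifi27l2a*.

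Several MHC class II genes were lower in ConA+TCDD than in ConA+Veh, where most UMIs of *H2-Ab1* lay in a few cells. Of 9 measured class II and costimulation genes, 6 were at least 2-fold lower (*H2-Aa*, *H2-Ab1*, *H2-Eb1*, *Cd74*, *H2-Oa* and the activation marker *Cd83*) and none higher, beside 8.31% of all genes lower and 4.90% higher. Of 6 measured in the 3-marker pDC, 3 were lower (*H2-Aa*, *H2-Ab1* and *H2-Eb1*) and none higher, beside 4.82% and 3.56%. *H2-Ab1* had 284 UMIs in 11 ConA+Veh members and 24 in 7 ConA+TCDD members, a log2 ratio of −2.72 (−3.38 to −2.11). The 5 deepest ConA+Veh members with exactly 2 rule markers held 34, 111, 20, 22 and 64 of the 284. Counting 3-marker pDC alone it had 33 UMIs in 6 cells and 13 in 4, a ratio of −1.21 (−2.26 to −0.24), and 13 and 11 of the 33 lay in 2 cells. The median 3-marker cell had 0 UMIs of *H2-Ab1* in either library. *H2-Eb1* differed by −2.18 (−3.93 to −0.77) and *Cd74* by −0.68 (−0.99 to −0.38) in the 3-marker pDC, where *H2-Eb1* had 25 UMIs in 4 ConA+Veh cells, 60% of them in 1 cell, and 5 UMIs in 2 ConA+TCDD cells. B cell markers moved with this result, at 850 and 96.4 CPM over all members. In the 3-marker pDC they stood at 15.4 and 84.7, in the opposite order. Hepatocyte markers were also lower in ConA+TCDD, at 529 and 24.1 CPM over all members and at 785 and 33.9 in the 3-marker pDC. The ConA+Veh 3-marker cell with 11 UMIs of *H2-Ab1* held 9 hepatocyte markers. The part of such RNA in this result was not tested. In all other cells *H2-Ab1* was at 638 and 375 CPM.

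The remaining ranked genes were *Rbm3*, a cold-induced RNA-binding protein, and *Id3*, *AC140186.1*, *Cdh1*, *Nsd1* and *Serpina3g*, which were higher, and *Cd79a*, *Cxcl2*, *Apoe*, *Ifi205* and *Cst3*, which were lower. *Rbm3* had 63 and 92 UMIs, a log2 ratio of 1.39 (0.92 to 1.88), 1.05 (0.30 to 1.82) in the 3-marker pDC and 0.71 without the deepest member of each library. The other cells had 507 and 916 CPM. *Id3*, an inhibitor of E proteins, had 9 UMIs in 6 cells and 27 in 3 cells, and 51.9% of the latter lay in 1 cell. Of the 924 *Cst3* UMIs of ConA+Veh, 81.2% lay in 1 cell, and the log2 ratio was −0.63 (−1.09 to −0.19) in the 3-marker pDC. All 18 *Serpina3g* UMIs of ConA+TCDD lay in 1 cell. In ConA+Veh 1 cell held 70.3% of the *Cd79a* UMIs, 67.6% of those of *Apoe*, 97.8% of those of *Cxcl2* and 97.1% of those of *Ifi205*. *Nsd1* was higher by 0.95 in the 3-marker pDC.

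ConA+FICZ was compared with the same ConA+Veh library, and the comparisons with ConA+TCDD and Naive therefore share these control cells. Of 22 measured identity genes none was 2-fold higher or lower, beside 6.05% of 1818 genes higher and 8.25% lower. Among 3-marker pDC, 2 of 22 were lower (*Lefty1* and *Mpeg1*) and none higher, beside 5.74% of 958 genes higher and 6.16% lower. *Mpeg1*, which encodes the pore-forming perforin-2, had 97 and 41 UMIs in the 3-marker pDC, a log2 ratio of −1.03 (−1.59 to −0.49). *Klk1* was lower by 0.46 on the log2 scale over all members, at −0.46 (−0.87 to −0.06), and at −1.01 (−1.42 to −0.61) in the 3-marker pDC. The level of *Gng10*, a G protein gamma subunit, was 44 UMIs in 14 ConA+Veh members and 4 in 3 ConA+FICZ members, a log2 ratio of −2.69 (−4.63 to −1.24), and −3.03 (−6.18 to −0.98) in the 3-marker pDC. *Jund*, a subunit of AP-1, differed by −0.66 (−1.19 to −0.15), and by −1.65 (−2.40 to −0.95) in the 3-marker pDC.

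Among the genes ranked highest in ConA+FICZ were *C1qb*, *Chil3* and *Lyz2* of macrophages, *Gzma* of cytotoxic lymphocytes and *Saa3*, each found in 1 cell of that library. A member of 16156 UMIs with 4 rule markers held all 30 UMIs of *C1qb* and all 23 of *Lyz2*, together with 7 of *Siglech*. Monocyte and macrophage markers summed to 1548 CPM in ConA+FICZ members and 462 in ConA+Veh members, and to 2355 and 462 in the 3-marker pDC. The member of 16156 UMIs held 28.8% of all UMIs of the ConA+FICZ 3-marker pDC, which enters each of their ratios. The genes ranked lowest were *Ifitm1*, *Cst3*, *Rgs1*, *Ckb*, *Gng10* and *Plbd1*. A single ConA+Veh cell held 76.1% of that library's UMIs for *Ifitm1*, and this share was 81.2% for *Cst3* and 80.5% for *Plbd1*. *Plbd1* was not lower in the 3-marker pDC. Of 10 measured class II and costimulation genes, 5 were at least 2-fold lower over all members (*H2-Aa*, *H2-Ab1*, *H2-Eb1*, *H2-DMb1* and *Cd83*), beside 8.25% of all genes, and in the 3-marker pDC none of 7 was past 2-fold in either direction. There the log2 ratio of *H2-Ab1* was 0.53 (−0.17 to 1.23), against −1.15 (−1.54 to −0.78) over all members, so that no direction is given.

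The AhR itself, a receptor that moves to the nucleus once a ligand occupies it, was seen in 16 of the 80 pDC. *Ahr* had 15 UMIs in 10 of 21 Naive members, 9 in 6 of 25 ConA+Veh members and none in the 17 ConA+TCDD and 17 ConA+FICZ members. In the 3-marker pDC these counts were 14, 3, 0 and 0. The floor of 3 counts stands for 36.2 CPM in ConA+TCDD and 34.2 in ConA+FICZ, against a level of 60.2 (27.6 to 114) in ConA+Veh. The exact interval of a count of 0 reaches above this floor. The interval of ConA+Veh includes both of these floor levels. The upper bound of the log2 ratio to ConA+Veh was −0.13 in ConA+TCDD and −0.21 in ConA+FICZ over all members, and no ratio is given for the 3-marker pDC, where all 3 ConA libraries were at or under 3 counts. Thinned to 1000 UMIs, *Ahr* was found in 15% of Naive members and 0% of the members of each other library, and in 1.84%, 4.04%, 3.17% and 2.15% of T-type cells. Unthinned, it was in 47.6%, 24%, 0% and 0% of members and in 3.34%, 20%, 18.7% and 16.6% of the deeper T-type cells, whose median depth was 2902, 7895.5, 7266.5 and 9521 UMIs. The level of *Ahr* in all other cells was 23.9, 31.4, 35.5 and 22.7 CPM over the 4 libraries. The AhR target genes *Cyp1a1*, *Cyp1b1*, *Ahrr* and *Nqo1* had no UMI in any member. *Tiparp*, another target, had 1, 10, 7 and 9 UMIs, and its log2 ratio to ConA+Veh was 0.33 (−1.30 to 1.88) in ConA+TCDD and 0.61 (−0.86 to 2.07) in ConA+FICZ, and −0.12 (−2.17 to 1.85) and 0.80 (−0.86 to 2.57) in the 3-marker pDC.

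*Cd37*, a tetraspanin, and *Actb*, which encodes beta-actin, are given because the study examined them in its own pDC cluster. *Cd37* had 50, 39, 29 and 36 UMIs over the 4 libraries, and 478, 261, 350 and 410 CPM. The log2 ratio for ConA+TCDD over ConA+Veh was 0.42 (−0.32 to 1.15), and 0.36 (−0.62 to 1.35) in the 3-marker pDC, so that no difference was detectable. *Actb* had 1560 UMIs in ConA+Veh and 614 in ConA+TCDD members, which gave a ratio on the log2 scale of −0.50 (−0.63 to −0.36), and −0.32 (−0.50 to −0.15) in the 3-marker pDC. *Actb* was also lower in all other cells, at 7912 and 5817 CPM.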

How the data were processed

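Liver mononuclear cells were isolated by the authors by enzymatic digestion and a Percoll gradient and profiled with the 10x Genomics 5′ assay. The deposited values are UMI counts per gene and cell, which the authors made with Cell Ranger 3.0.2 on mm10, with no normalization. In each library 31053 genes were listed. No cell annotation was used, and the members were picked by symbol from the counts of all 4 libraries, which were read with Python 3.11.15, scipy 1.17.1 and pandas 2.3.3. The members, the gene lists and the rules for naming genes were chosen with earlier results of these data known.

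UMIs were summed over cells and divided by their total (counts per 1000000, CPM), with exact Poisson intervals. Ratios between libraries have intervals from the exact binomial split of the 2 sums, and shares have Clopper-Pearson intervals. A gene counted as measured with at least 20 UMIs over the members of both libraries, without immunoglobulin and T cell receptor segments, and as different at 2-fold. For levels pooled over libraries, the minimum of 20 UMIs was set on the members alone. The 15 genes with the highest pooled ratio and, per comparison, the 6 highest and 6 lowest by the bound nearest 0 were named, besides genes of 27 lists, and some items are not reported here. Where a sum was 0, a floor of 3 counts per library was used. Cells that met the markers of more than 1 comparison class were put in none of them. Cells were thinned without replacement to 1000 UMIs. Gene positions are from GENCODE M21. The ratios were tested on simulated sums with 200 genes changed 4-fold. The simulation held counting error only and no differences between cells, so that it cannot show how the intervals hold under such differences.

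As alternatives, 3 or more rule markers were required, members with a UMI of the B cell set that includes *Cd79a* were excluded, cells under 200 genes or above 10% mitochondrial UMIs were excluded, cells were thinned before the rule, the *Cd3* condition was dropped, the denominator was changed, means over cells per 10000 UMIs, totals without ribosomal protein and mitochondrial genes, and minima of 10 and 50 UMIs were used, and the deepest member of each library was left out.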

Additional observations from a re-analysis of the deposited data

How the results depend on the processing

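With 1 library per group and 17 to 25 pDC in each, depth limited every comparison: 1 UMI over all members of a library stood for 6.69 to 12.1 CPM (UMIs per 1000000). No paired analysis was possible because each group has 1 library. Without the *Cd3* condition the pDC share was 1.34% in Naive, 2.66% in ConA+Veh, 2.29% in ConA+TCDD and 1.49% in ConA+FICZ, which adds cells that hold *Ccr9* and *Pacsin1* beside a *Cd3* gene, and under the other alternatives it stayed within the counting interval of each library. The counts of identity, transcription factor and sensing genes above other cells stayed within 1.5 times under all 6 alternatives. Thinned to 500 UMIs, *Siglech* was found in 51.2% and *Tcf4* in 41.2% of members.

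The numbers of genes past 2-fold depended on the processing. With 3 or more rule markers fewer genes were measured. In ConA+Veh over Naive 120 were higher and 92 lower of 1091 (169 and 193 of 2009 over all members). As shares these were 11.0% and 8.43%, against 8.41% and 9.61% over all members. In ConA+TCDD 34 were higher and 46 lower of 955 (86 and 146 of 1756), and in ConA+FICZ 55 and 59 of 958 (110 and 150 of 1818). With members holding B cell RNA left out, 113 of 1203 measured genes were lower in ConA+Veh and 214 higher, against 193 and 169 of 2009 over all members. With means over cells, 366 were higher in ConA+Veh (169 with sums) and 269 lower in ConA+FICZ. With at least 50 UMIs the higher and lower counts were 46 and 32 for ConA+Veh, 8 and 24 for ConA+TCDD and 18 and 33 for ConA+FICZ, and with at least 10 UMIs they were 416 and 623, 315 and 475, and 387 and 426, as fewer or more genes were measured. Of 663 values of named genes under an alternative, 504 stayed within the interval of the reported log2 ratio, 149 lay outside it with no reversal of a 2-fold difference, and 10 differences past 2-fold changed sign. The last were *Hist1h1e* at 0.64 with 3 or more rule markers, 0.42 without B cell RNA and 0.22 without the deepest members, *Hist1h1b* at 0.68 without B cell RNA and 1.33 without the deepest members, *Ccl4* at 0.25 without B cell RNA, and, with 3 or more rule markers in ConA+FICZ, *H2-Aa* at 0.48, *H2-Ab1* at 0.53, *H2-Eb1* at 0.78 and *Plbd1* at 0.63. The cause was not tested beyond the cells named for these genes in the text above.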
